A study of Arabidopsis thaliana with 4 samples.

Results

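The genes examined here are those that the deposited annotation ties to anaphase, the stage of mitosis at which the sister chromatids separate. A gene was taken if a probe set naming that gene alone carried a biological process term exactly named anaphase and not the term ribosome biogenesis. The table held 120 probe sets with the term, of which 1 named several genes and was left out, and 0 carried ribosome biogenesis. The other 119 stand for 118 genes out of 20341 genes with a probe set of their own. Where a gene had more than 1 probe set, the one with the highest mean over the 4 arrays was used. The probe set was thus selected on its mean signal, the only measured value in the rule. The set itself was proposed with results of these arrays known, so its differences are given as descriptions.

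Total RNA from roots of Arabidopsis thaliana was hybridised to 4 arrays, and 1 array stands for each group. The groups were the mutant wrky47-1 in Al, wrky47-1 in control solution, the wild type in Al and the wild type in control solution. All plants were 4 weeks old, had grown in hydroponic culture and spent 6 h in 0.5 mM CaCl2, to which 25 µM AlCl3 was added for the Al groups. The mutant is disrupted in WRKY47, a gene of the WRKY family of plant transcription factors, and is 1 mutant line. With n = 1 in each group there is no replicate error, so no difference has a test or an error, and each compares single arrays.

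Anaphase begins when the anaphase-promoting complex, a ubiquitin ligase, marks cyclins and the protector of cohesion for destruction, which frees the sister chromatids. Kinesins and microtubule-associated proteins then move the chromatids apart and build the phragmoplast, the plant structure in which vesicles fuse into a cell plate between the daughter nuclei. In roots, division is concentrated in the meristem at the tip, and aluminium is known to inhibit root elongation with the root apex as its main site of action.

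The label of the set is narrower than its content. For 117 members the anaphase term was recorded as inferred from reviewed computational analysis, a kind of evidence that need not include an experiment on the gene itself, and for 1 member, MAP65-1, it came from a mutant phenotype. Of the 118 members, 104 (88.1%) also carried the term cytokinesis by cell plate formation, against 0.914% of all genes. Microtubule cytoskeleton organization was named for 69 members (58.5%, against 0.733% of all genes), and histone H3-K9 methylation for 64 (54.2%, against 0.880%). Regulation of DNA replication was named for 50 members and mitosis for 38. Spindle assembly was named for 46 genes in all, and 44 of them were members. By known role 92 members were sorted into 10 groups after their values had been listed, and 26 were not placed. The set is therefore described as genes with the term anaphase, spanning the cell cycle and not that stage alone.

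A gene was called detected on an array when its signal exceeded a floor, the 40th percentile over that array's gene probe sets. These floors were 75.09 in wrky47 in Al, 79.06 in wrky47 in control solution, 75.002 in the wild type in Al and 81.08 in the wild type in control solution. Members above the floor numbered 82 in wrky47 in Al, 89 in wrky47 in control solution, 79 in the wild type in Al and 89 in the wild type in control solution. Both Al arrays thus had fewer detected members than both control arrays, while the share of all genes detected was fixed by the floor at 63.1% to 63.2% on every array. On all 4 arrays 78 members were detected, and 26 were detected on none. The undetected members included the separase gene ESP, the cohesin subunits SYN2 and SYN3, and the phragmoplast kinesin PAKRP1.

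Signals of WRKY47 were 24.1 in wrky47 in Al, 27.5 in wrky47 in control solution, 203 in the wild type in Al and 173 in the wild type in control solution. Both mutant arrays lay below the floor, and both wild-type arrays above it. Genes fixed as markers of dividing cells, 13 in number and 8 of them members, were detected in 10 of the 11 with a probe set of their own on each Al array and in 11 on each control array. Their summed signal was 2348 in wrky47 in Al and 3905 in wrky47 in control solution, and 2180 in the wild type in Al and 3890 in the wild type in control solution. Markers of other cells differed with Al as well. Endodermis markers summed to 572 in wrky47 in Al against 2454 in wrky47 in control solution, and to 750.2 in the wild type in Al against 4668 in the wild type in control solution. Root hair markers summed to 266 in Al against 437 in control solution in wrky47, and to 324 in Al against 660 in control solution in the wild type. Of these 5 markers 1 was detected on each Al array, 3 in wrky47 in control solution and 4 in the wild type in control solution. Their sums thus include signal below the floor. Xylem markers summed to 2790 in Al against 3705 in control solution in wrky47, and to 3918 in Al against 4584 in control solution in the wild type. Stele and phloem markers were also lower in Al in both genotypes. The summed signal of green tissue markers was higher, with 492 in Al against 320 in control solution in wrky47, and 674 in Al against 514 in control solution in the wild type. Of the 5 listed, 3 had a probe set of their own. Among these LHCB4.1 was lower in Al in the wild type (242 against 259), and LHCB5 was below the floor in wrky47 in control solution. Root cap markers were detected in 0 of 3 cases on every array. Of 5 root meristem genes with a probe set of their own, PLT1 and PLT2 lay below the floor on every array. The other 3, SHR, SCR and UPB1, lay above it on every array. Their log2 Al differences were -0.17, -0.49 and 0.89 in wrky47, and -0.44, -0.35 and 0.24 in the wild type. Spike-in controls of the dap gene averaged 8.29, 8.21 and 8.33 on the log2 scale on the wrky47 Al, wrky47 control and wild-type Al arrays, and 7.66 on the wild-type control array, which was the lowest of the arrays. Those of thr averaged 7.05, 7.03 and 7.11 on the same arrays, and 6.62 on the wild-type control array. Spike-ins of phe, lys and cre were also lowest there, by smaller amounts, while those of bioB, bioC and bioD were not. The header of the deposited table also gives each array a number, 2 for wrky47 in Al and the wild type in control solution and 1 for wrky47 in control solution and the wild type in Al. What the number stands for was not stated there. The part of these cell markers and of the wild-type control array in the results below was not tested.

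Most measured members had a lower signal in Al than in control solution, in both genotypes, and by modest amounts. A member was measured in a comparison when detected on both arrays. In wrky47, 70 of 82 measured members (85.4%) were lower in Al, against 57.8% of the 12465 measured genes, and the median log2 difference (Al minus control) was -0.26, against -0.07 over all measured genes. In the wild type, 76 of 79 measured members (96.2%) were lower in Al, against 64.1% of the 12434 measured genes, and the median was -0.48, against -0.12. The quartiles of the members were -0.43 and -0.08 in wrky47, and -0.74 and -0.31 in the wild type. Genes with the term ribosome biogenesis were lower in Al about as often. In wrky47 it was 111 of 126 (88.1%, median -0.16), and in the wild type 124 of 126 (98.4%, median -0.27). The high share of lower genes was thus not particular to the members, whose medians lay further below 0. Relative to the median of all measured genes, 62 of the 82 members were lower in wrky47 and 69 of the 79 in the wild type, so some members were not shifted beyond the array as a whole. Counts by role group given below stand against the same shares of all measured genes, 57.8% in wrky47 and 64.1% in the wild type. The role groups were formed after the values had been listed.

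**Figure D1:**
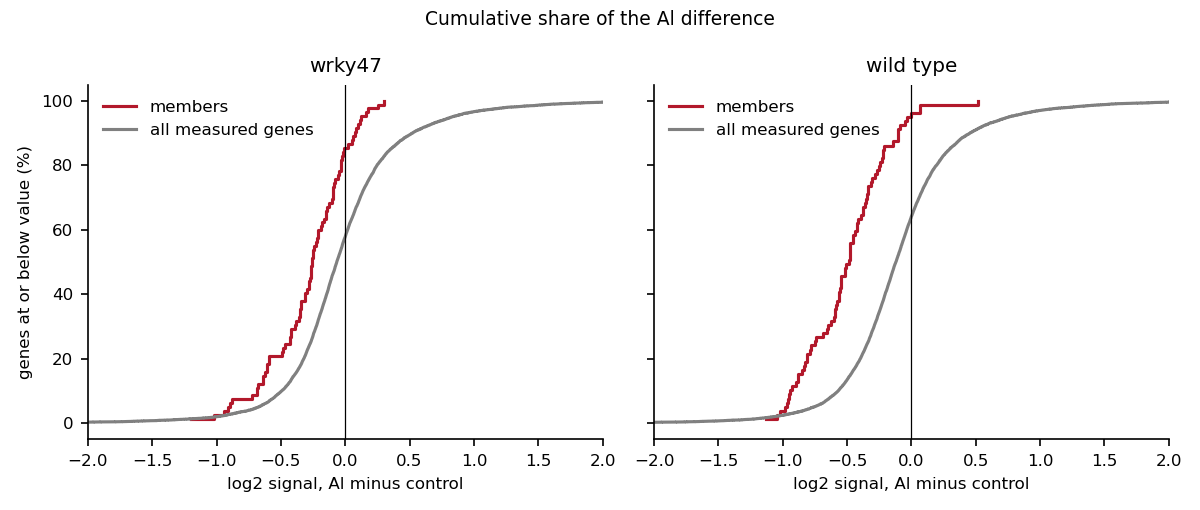
Cumulative share of genes (%, y axis) at or below each log2 difference between Al and control solution (x axis), in wrky47 (left panel) and in the wild type (right panel). The red curve is the members measured in that genotype (82 in wrky47, 79 in the wild type), the grey curve all measured genes, and the red curve lies left of the grey one over nearly its whole height.

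At least 2-fold lower in Al were 2 members in wrky47, CYCB1;3 and ATK5, against 1.97% of all measured genes, and 0 members were at least 2-fold higher, against 3.42%. In the wild type 3 members were at least 2-fold lower, namely VLN1, CDKB2;1 and KNOLLE, against 2.42% of all measured genes, and 0 were at least 2-fold higher, against 3.05%. At this threshold the members' share lies near the background. At 1.5-fold, 17 of 82 members were lower in wrky47, against 7.06% of all measured genes, and 29 of 79 in the wild type, against 9.39%. Requiring detection on both arrays leaves out members that were lost below the floor. Without any filter, 104 of 118 members (88.1%) were lower in Al in wrky47, against 58.6% of all genes, and 112 of 118 (94.9%) in the wild type, against 56.1%. Genes with a mean signal between the quartiles of the members' means had medians of -0.09 in wrky47 and -0.15 in the wild type, nearer to the medians of all genes than to those of the members. In the mean of both Al differences each header number stands once on each side. This mean was below 0 in 74 of the 78 members detected on all 4 arrays, against 62.1% of all genes so measured, with a median of -0.38 against -0.10. In root tissue as a whole, fewer dividing cells and less RNA per cell cannot be told apart.

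Regulators of the mitotic cycle stood among the members with the lowest Al differences. CYCB1;3, a B-type cyclin of mitosis, had a signal of 183 in wrky47 in Al, 422 in wrky47 in control solution, 171 in the wild type in Al and 334 in the wild type in control solution. CDKB2;1, a plant-specific kinase active around the entry into mitosis, had 279, 526, 242 and 499 in the same order of groups. Both Al arrays lay far below both control arrays for each of these genes. The log2 Al difference of CYCB1;3 was -1.20 in wrky47 and -0.97 in the wild type, and that of CDKB2;1 was -0.91 in wrky47 and -1.04 in the wild type. CYCA1;1, an A-type cyclin, had 228, 352, 206 and 362, which gave -0.63 in wrky47 and -0.82 in the wild type.

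Some regulators had unequal differences in the genotypes. CYCB1;1, the B-type cyclin widely used as a marker of cells at the G2 to M transition, had 124 in wrky47 in Al, 157 in wrky47 in control solution, 97.5 in the wild type in Al and 171 in the wild type in control solution. CYCD3;1, a D-type cyclin that promotes entry into the cycle, had 549, 586, 463 and 703 in the same order. For both genes the arrays of the wild type lay further apart than those of wrky47, with log2 Al differences of -0.34 in wrky47 and -0.81 in the wild type for CYCB1;1, and -0.09 in wrky47 and -0.60 in the wild type for CYCD3;1. WEE1, a kinase that restrains cyclin-dependent kinases, went the other way, with 119 in wrky47 in Al, 166 in wrky47 in control solution, 113 in the wild type in Al and 114 in the wild type in control solution. Only the wrky47 control array was high for WEE1, and the wild-type arrays were so close that another scaling turned the sign of their difference. MYB3R-4, a transcription factor that activates genes of the G2 to M transition, had differences of -0.47 in wrky47 and -0.38 in the wild type, and CDKB2;2, of the same kinase family as CDKB2;1, had -0.35 in wrky47 and -0.34 in the wild type. ICK6, an inhibitor of cyclin-dependent kinases, had small ones, -0.17 in wrky47 and -0.04 in the wild type. In this role group 11 of 12 measured members were lower in Al in wrky47 (median -0.38) and 11 of 11 in the wild type (median -0.46). The member above 0 in wrky47 was CDKD1;3, a kinase that activates other cyclin-dependent kinases, at 0.11.

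Members of the ubiquitin and checkpoint group were lower in Al in 4 of 4 cases in both genotypes. CCS52B, an activator of the anaphase-promoting complex, had 179 in wrky47 in Al, 343 in wrky47 in control solution, 197 in the wild type in Al and 362 in the wild type in control solution. UBC20, a ubiquitin-conjugating enzyme, had 280.0, 435, 371 and 559 in the same order. For CCS52B the arrays of a solution lay close together, while for UBC20 wrky47 lay below the wild type in both solutions. BUB3.1, a protein of the spindle checkpoint, had nearly the same difference in both genotypes, -0.49 in wrky47 and -0.48 in the wild type. APC6, a subunit of the anaphase-promoting complex, had -0.11 in wrky47 and -0.42 in the wild type.

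The chromatid cohesion and condensation group had 7 measured members, all of them lower in Al in both genotypes, with medians of -0.31 in wrky47 and -0.66 in the wild type. PANS1, which protects cohesion at the centromeres until anaphase, had 216 in wrky47 in Al, 396 in wrky47 in control solution, 186 in the wild type in Al and 367 in the wild type in control solution. 3xHMG-box2, a protein that binds mitotic chromosomes, had 272, 423, 225 and 433 in the same order. Both Al arrays lay below both control arrays for both genes. TOPII, the topoisomerase that untangles sister DNA molecules, had log2 Al differences of -0.43 in wrky47 and -0.93 in the wild type. ATCAP-C, a condensin subunit, had -0.31 in wrky47 and -0.66 in the wild type. The cohesin subunit SCC3 (-0.26 in wrky47 and -0.21 in the wild type) and the condensin subunit SMC2 (-0.28 in wrky47 and -0.11 in the wild type) had smaller ones. Of the centromere and kinetochore group few members were measured. CENP-C, a protein of the inner kinetochore, had -0.10 in wrky47 and -0.34 in the wild type, and CENH3, the centromeric histone, was detected on the control arrays only.

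Motors and microtubule-associated proteins of the spindle and phragmoplast were lower in Al with few exceptions. ATK5, a kinesin that focuses the spindle poles, had 288 in wrky47 in Al, 583 in wrky47 in control solution, 269 in the wild type in Al and 522 in the wild type in control solution. Its log2 Al difference was -1.02 in wrky47 and -0.96 in the wild type. HINKEL, a kinesin needed for the growth of the phragmoplast, had 245, 295, 244 and 368 in the same order, so its wild-type control array stood above the rest. All 7 kinesins measured in wrky47 were lower in Al (median -0.27), as were all 6 in the wild type (median -0.76). AT5G60930, annotated as a kinesin, had -0.19 in wrky47 and -0.88 in the wild type. AT2G36200, also a kinesin, had -0.59 in wrky47 and -0.90 in the wild type, while AT1G63640, another, had -0.26 in wrky47 and -0.25 in the wild type.

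Members of the MAP65 family, which crosslink antiparallel microtubules, ranged widely. PLE, also known as MAP65-3 and placed at the phragmoplast midzone, had 85.05 in wrky47 in Al, 128 in wrky47 in control solution, 88.4 in the wild type in Al and 152 in the wild type in control solution. MAP65-2 had 228, 269, 200 and 355, and MAP65-1 had 521, 535, 550.1 and 646, in the same order. PLE was lower in Al by a like amount in both genotypes, while MAP65-2 differed mainly between the wild-type arrays. For MAP65-1 the wild-type control array stood above the rest, with log2 Al differences of -0.04 in wrky47 and -0.23 in the wild type. MAP65-4 had log2 Al differences of -0.61 in wrky47 and -0.47 in the wild type. EB1B, which binds growing microtubule ends, was the exception, with 146 in wrky47 in Al, 118 in wrky47 in control solution, 90.6 in the wild type in Al and 133 in the wild type in control solution. Its log2 Al difference was 0.30 in wrky47 and -0.55 in the wild type.

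A number of members were above the floor in control solution and below it in Al. TPX2, a protein that starts spindle assembly, had 61.5 in wrky47 in Al, 114 in wrky47 in control solution, 56.1 in the wild type in Al and 114 in the wild type in control solution. Set against the floor of the Al array, it was at least 1.52-fold lower in Al in both genotypes. AT5G15510, annotated as a TPX2 family protein, had 50.7, 71.1, 56.9 and 159 in the same order, and only its wild-type control array was above the floor. It was at least 2.12-fold lower in Al in the wild type. In all, 7 members were seen only in control solution in wrky47 and 10 in the wild type, against 1.92% and 2.03% of all genes. Only in Al, 0 members were seen in either genotype, against 1.83% of all genes in wrky47 and 1.99% in the wild type.

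KNOLLE, the syntaxin that fuses vesicles at the cell plate, had a signal of 425 in wrky47 in Al, 790.5 in wrky47 in control solution, 414 in the wild type in Al and 843 in the wild type in control solution. Al arrays lay near one another and well below the control arrays, with log2 Al differences of -0.90 in wrky47 and -1.02 in the wild type. DRP5A, a dynamin-related protein of the cell plate, had 212, 339, 224 and 287 in the same order, with -0.68 in wrky47 and -0.36 in the wild type. VPS2.2, of a family that remodels membranes, had -0.43 in wrky47 and -0.69 in the wild type. SYP81, a syntaxin of the endoplasmic reticulum, was higher in Al in both genotypes by small amounts, 0.10 in wrky47 and 0.07 in the wild type. FU, the FUSED kinase of the phragmoplast, was the member with 2 probe sets, and the brighter one differed by 0.02 in wrky47 and -0.36 in the wild type, while the other was below the floor on every array.

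**Figure D2:**
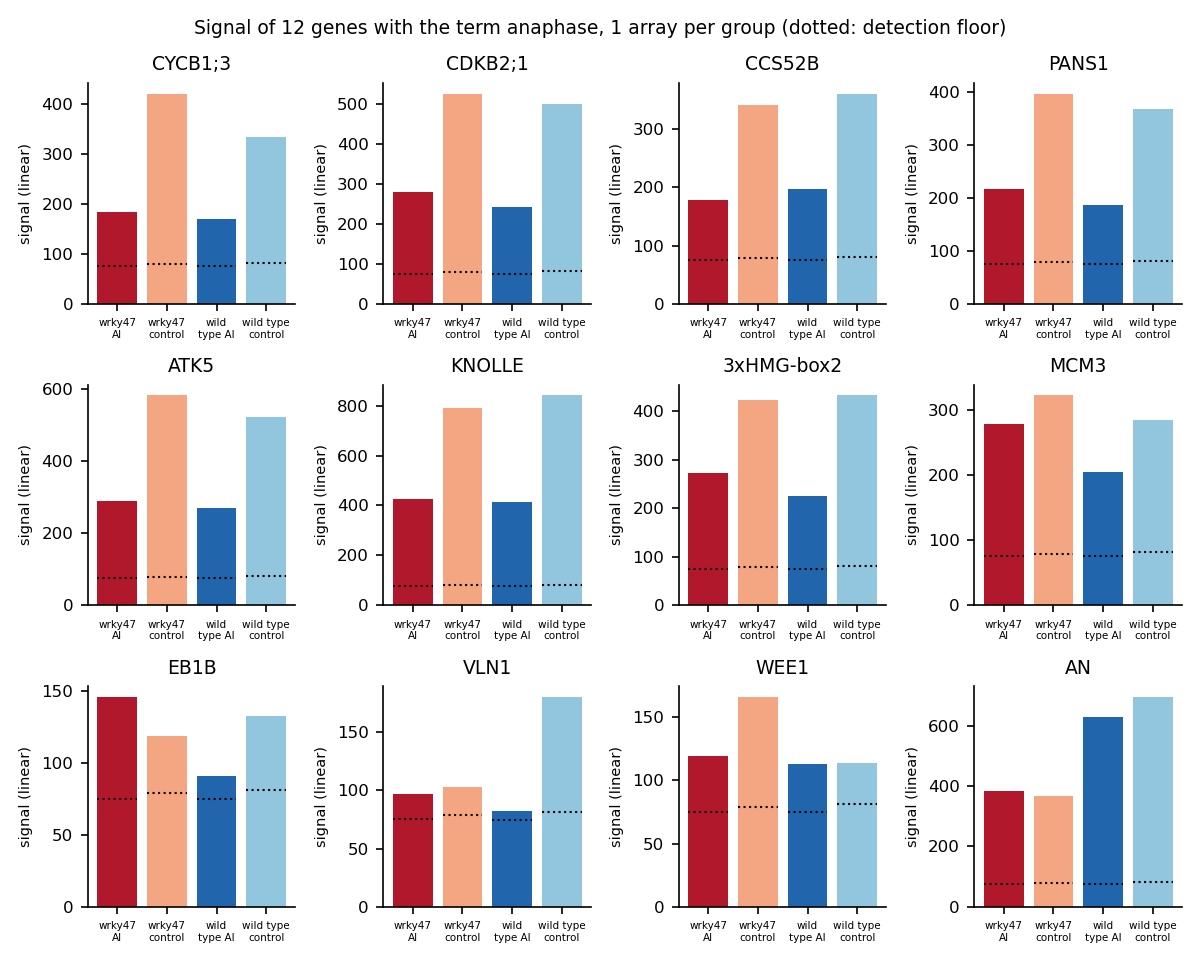
Signal on a linear scale (y axis) of 12 members on each of the 4 arrays (x axis), 1 bar per array, with the detection floor of the array as a dotted line. In CYCB1;3, CDKB2;1, CCS52B, PANS1, ATK5, KNOLLE and 3xHMG-box2 both Al arrays lie below both control arrays, while EB1B, VLN1, WEE1 and AN each have another pattern.

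DNA replication genes among the members had small Al differences in wrky47 and larger ones in the wild type. MCM3, a subunit of the helicase that opens replication origins, had 279 in wrky47 in Al, 323 in wrky47 in control solution, 204 in the wild type in Al and 285 in the wild type in control solution. The wild-type Al array was the lowest. MCM2, MCM4 and MCM5, subunits of the same helicase, had -0.30, -0.21 and -0.18 in wrky47, and -0.44, -0.32 and -0.56 in the wild type. In wrky47 8 of 10 measured members of the group were lower in Al (median -0.16), and in the wild type 9 of 9 (median -0.44). EMB2780, annotated as a DNA polymerase, was one of the members above 0 in wrky47, at 0.12, and was at -0.55 in the wild type.

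Chromatin members were measured in 6 cases in wrky47 and 5 in the wild type, with medians of -0.09 in wrky47 and -0.48 in the wild type. MSI2, a histone-binding WD40 protein, had 189 in wrky47 in Al, 194 in wrky47 in control solution, 240.4 in the wild type in Al and 343 in the wild type in control solution. AGO4, an Argonaute protein of RNA-directed DNA methylation, and CHR17, a chromatin remodelling factor, lay above 0 in wrky47 (0.05 and 0.17) and below 0 in the wild type (-0.27 and -0.11). Of the actin and cell shape group, VLN1, a villin that bundles actin filaments, had 96.5 in wrky47 in Al, 103 in wrky47 in control solution, 82.5 in the wild type in Al and 181 in the wild type in control solution. Its wild-type control array alone was high, and its log2 Al difference was -0.09 in wrky47 and -1.13 in the wild type.

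**Figure D3:**
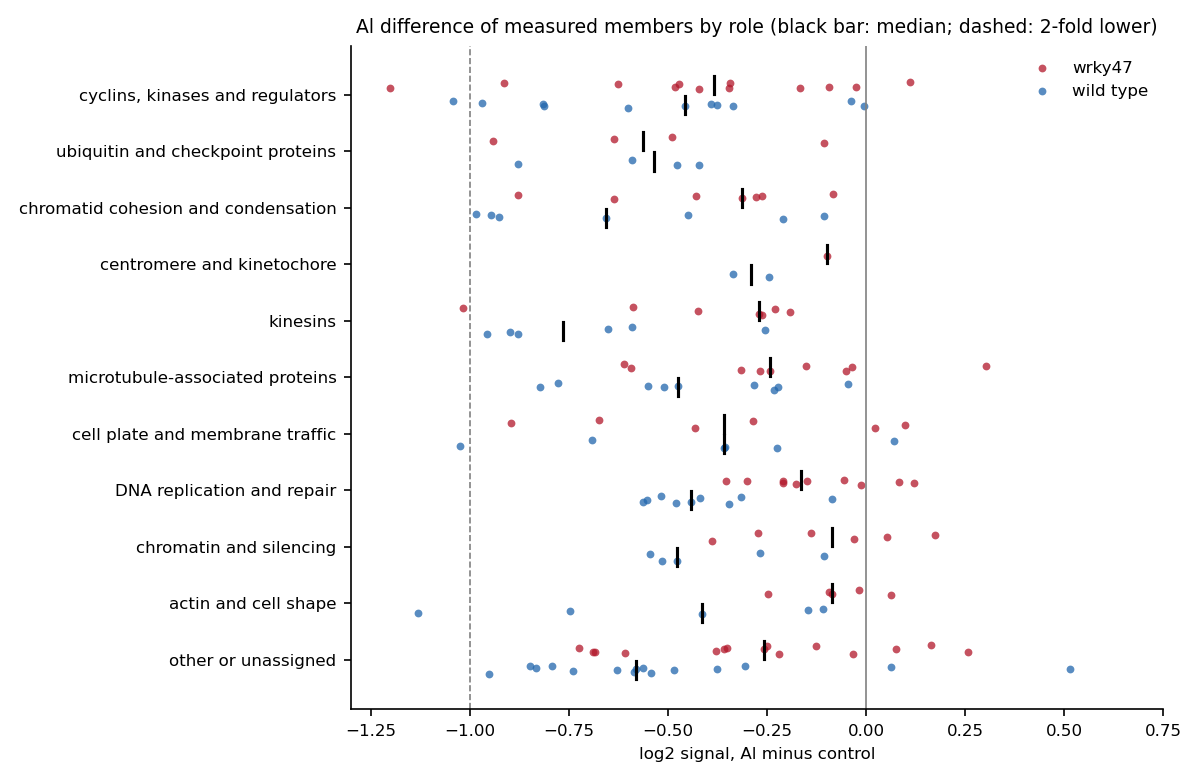
Log2 difference between Al and control solution (x axis) of each measured member, by role (y axis), with wrky47 in red above the wild type in blue, 1 point per gene and a black bar at the median. The dashed line marks 2-fold lower, past which lie CYCB1;3 and ATK5 in wrky47 and VLN1, CDKB2;1 and KNOLLE in the wild type.

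Among the members placed in no role group, 12 of 15 measured in wrky47 (median -0.26) and 13 of 15 in the wild type (median -0.58) were lower in Al. AT4G15830, annotated as an ARM repeat protein, had 307 in wrky47 in Al, 469 in wrky47 in control solution, 238 in the wild type in Al and 459 in the wild type in control solution. The receptor-like kinase AT4G36180 had -0.69 in wrky47 and -0.83 in the wild type, and AT2G28790, annotated as a thaumatin-like protein, had -0.72 in wrky47 and -0.58 in the wild type. AT1G14180, a RING domain protein, was above 0 in both, at 0.16 in wrky47 and 0.06 in the wild type. AT2G44660, annotated as a glucosyltransferase of the dolichol pathway, was the member with the highest Al difference in the wild type, with 462, 387, 454 and 318 in the same order as above, which gave 0.26 in wrky47 and 0.51 in the wild type. Both its Al arrays were above both control arrays.

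Members on either side of the 2-fold threshold differed little. In wrky47 ATK5 at -1.02 was just past it and CCS52B at -0.94 just short of it. In the wild type KNOLLE at -1.02 was just past it and PANS1 at -0.98 just short of it.

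Division genes without the anaphase term gave a comparison outside the set. In fixed lists of division and replication genes, 68 genes were not members. Of these 35 of 50 measured were lower in Al in wrky47 (median -0.20, 3 of them at least 2-fold lower), against 57.8% and 1.97% of all measured genes. In the wild type it was 42 of 52 (median -0.31, 2 of them at least 2-fold lower), against 64.1% and 2.42%. Below the median of all measured genes lay 31 of the 50 in wrky47 and 34 of the 52 in the wild type. CYCB1;4, another B-type cyclin, had 214 in wrky47 in Al, 536 in wrky47 in control solution, 212 in the wild type in Al and 436 in the wild type in control solution, and MAD2, a spindle checkpoint protein, had 301, 746, 312 and 616. Both had Al arrays far below the control arrays, with -1.32 in wrky47 and -1.04 in the wild type for CYCB1;4, and -1.31 in wrky47 and -0.98 in the wild type for MAD2. The cyclins CYCA2;2 and CYCB2;2 and the kinase AUR1 were at -0.94, -1.12 and -0.87 in wrky47, and at -1.12, -0.67 and -0.71 in the wild type. E2FB, a transcription factor that promotes division, was higher in Al, by 0.90 in wrky47 and 0.53 in the wild type on the log2 scale. Anaphase-promoting complex genes and activators outside the set were lower in Al in 6 of 9 measured cases in wrky47 (median -0.16). In the wild type 7 of 8 of them were lower (median -0.34). All 5 cytokinesis genes outside the set (KEULE, SNAP33, MKK6, MPK4 and DRP1A) were above 0 in the wild type and 4 of 5 in wrky47. Genes of cohesin, separase and their regulators outside the set were below 0 in 2 of 5 measured cases in wrky47 (median 0.01). In the wild type it was 4 of 5 (median -0.05, against -0.12 over all measured genes).

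The Al differences of both genotypes, which share no array, were set side by side for the 78 members detected on all 4 arrays. Of these, 66 (84.6%) were lower in Al in both genotypes, against 50.6% of the 12223 genes measured on all arrays. Higher in both were 3 members, and 9 had opposite signs, against 3554 and 2473 of the 12223 genes. Across the 78 members the correlation of the Al differences was 0.634 by Pearson and 0.577 by Spearman, against 0.879 and 0.781 across all measured genes, and every point rests on the same 4 arrays. Genes are not independent replicates, and the coefficients describe these arrays only. At least 1.5-fold lower in both genotypes were 15 of the 78 members, against 4.94% of all measured genes, among them KNOLLE, CYCA1;1, CYCB1;3, CDKB2;1, CCS52B, UBC20, PANS1, ATK5, 3xHMG-box2 and PLE.

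**Figure D4:**
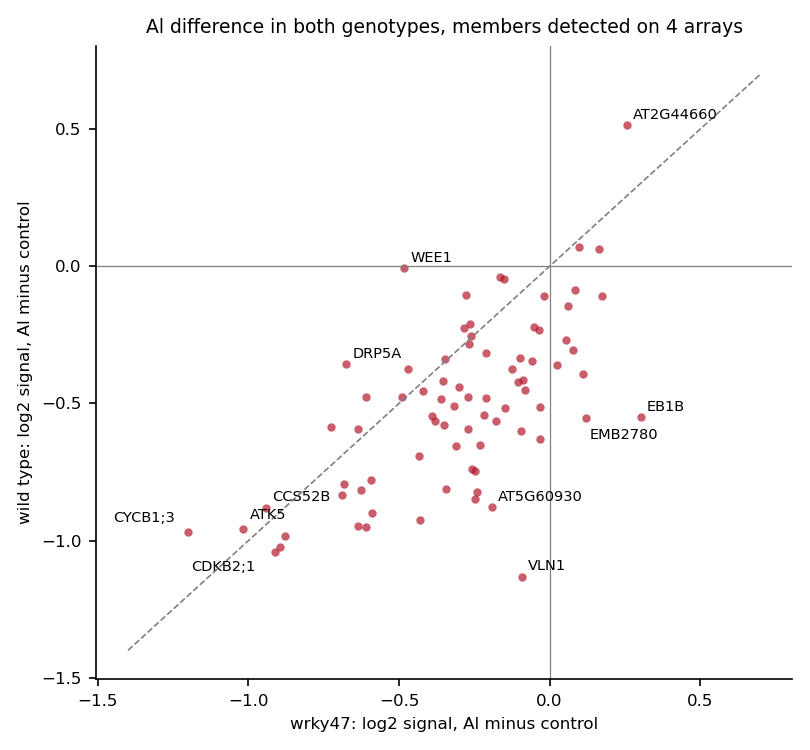
Log2 difference between Al and control solution in wrky47 (x axis) and in the wild type (y axis) for the 78 members detected on all 4 arrays, 1 point per gene. The dashed diagonal marks equal differences. Below it lie 60 members, whose Al difference was higher in wrky47, and above it 18, and VLN1, EB1B, EMB2780 and AT5G60930 lie furthest below.

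The difference of the Al responses, wrky47 minus wild type, was above 0 in 60 of 78 members (76.9%) and below 0 in 18. Of all measured genes 59.6% were above 0 and 40.3% below. The members had a median of 0.19 against 0.05. For most members the Al array thus lay less far below the control array in wrky47 than in the wild type. VLN1 was the 1 member past 2-fold, at 1.04, against 0.131% of all measured genes past 2-fold in that direction, and 0 members were past it in the other, against 0.0573%. EB1B followed at 0.85, AT5G60930 at 0.69, EMB2780 at 0.67 and AT1G63100, annotated as a scarecrow-like protein, at 0.60. Below 0 lay WEE1 at -0.48 and DRP5A at -0.32. Genes with the term ribosome biogenesis, which are abundant in growing cells too, had a median of 0.14, with 99 of 126 above 0. Each of these values uses the wild-type control array, on which some spike-in signals, dap and thr among them, were the lowest and those of bioB, bioC and bioD were not. Each also sets the arrays numbered 2 in the header against those numbered 1, so the difference of the responses and the header number cannot be told apart.

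Between the genotypes in control solution, 59 of 86 measured members (68.6%) were lower in wrky47, against 60.1% of the 12602 measured genes, with a median of -0.09 against -0.05. Members with a role in division or DNA replication were near all genes, with 36 of 60 lower (60%, median -0.05). The other members (actin and cell shape, chromatin, or in no role group) were lower in 23 of 26 cases (88.5%, median -0.21). At 2-fold 0 members were higher, against 0.103% of all measured genes, and 0 lower, against 0.206%. The 5 measured members of the actin and cell shape group were all lower in wrky47 (median -0.46). AN, or ANGUSTIFOLIA, which shapes cell expansion, had 384 in wrky47 in Al, 368 in wrky47 in control solution, 631 in the wild type in Al and 698 in the wild type in control solution. AN was lower on both wrky47 arrays, with log2 differences of -0.72 in Al and -0.92 in control solution. MSI2 was at -0.34 in Al and -0.83 in control solution, and AT4G29360, annotated as a glucanase, at -0.31 in Al and -0.56 in control solution. AT4G20430, a subtilase, was at -0.46 in control solution, and AT2G22610, a kinesin, was at 0.27. WEE1 was the member furthest above 0 in control solution, at 0.55, and was at 0.07 in Al. In control solution AT5G15510 was at least 2.01-fold lower in wrky47, since it was above the floor in the wild type only.

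In Al 57 of 78 measured members were higher in wrky47. The share that was lower was 26.9%, against 49.3% among all measured genes, and the median was 0.11 against 0.00. At 2-fold 0 members were higher, against 0.23% of all measured genes, and 0 lower, against 0.111%. EB1B had the highest difference, at 0.69, and MCM3 was at 0.45. All 9 measured DNA replication and repair members were above 0 (median 0.24). AN, AT2G28790 and UBC20 were lowest, at -0.72, -0.43 and -0.41, and AT1G63640 was at -0.28. Xylem markers were lower in wrky47 in 5 of 5 cases in Al (median -0.65) and in 5 of 5 in control solution (median -0.35). Measured endodermis markers were lower in 3 of 3 cases in Al (median -0.37) and in 4 of 4 in control solution (median -0.93). Measured root hair markers were lower in 1 of 1 in Al (-0.34) and in 3 of 3 in control solution (median -0.76). Of the 3 phloem markers, SUC2 was higher in wrky47 in control solution, at 0.43, while APL (-0.33) and SEOR1 (-0.31) were lower. In Al SUC2, APL and SEOR1 were all lower in wrky47, at -0.20, -0.04 and -0.33. The part of these cell markers in the genotype differences was not tested. The genotype differences set opposite header numbers against each other in Al and in control solution, so a change of sign between the solutions and the header number cannot be told apart.

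**Figure D5:**
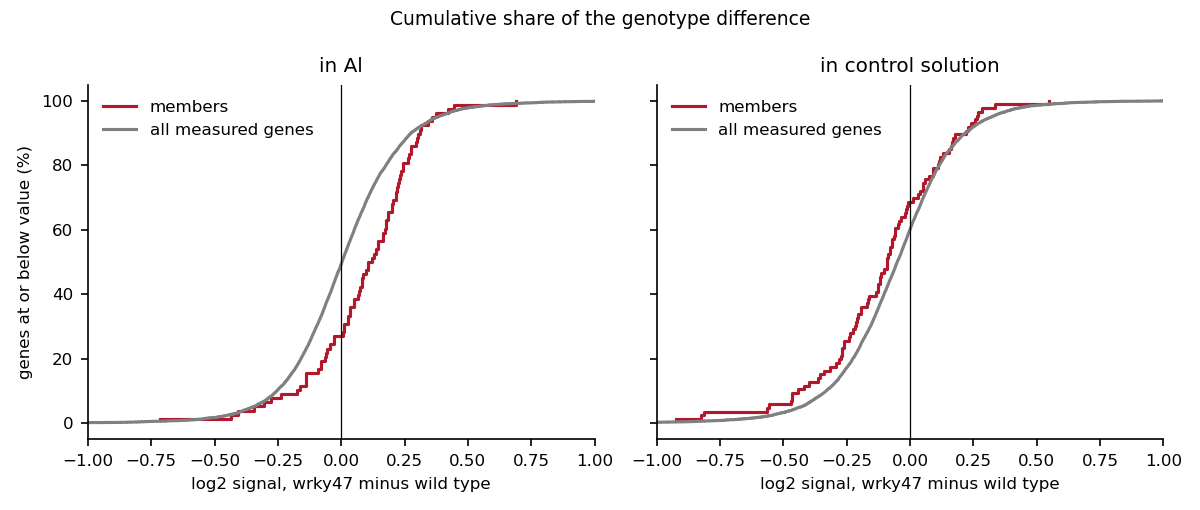
Cumulative share of genes (%, y axis) at or below each log2 difference between wrky47 and the wild type (x axis), in Al (left panel) and in control solution (right panel). The red curve is the measured members (78 in Al, 86 in control solution) and the grey curve all measured genes, and the red curve lies to the right of the grey one in Al over most of its height (median 0.11 against 0.00) and close to it in control solution (median -0.09 against -0.05).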

How the data were processed

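Root RNA of 4 groups was measured on 1 array each. The authors deposited normalized log2 signals per probe set, per the file headers, and columns headed raw, which hold linear signal intensity equal to 2 to the power of the log2 column. MAS5 is named in the submitters' processing notes. How background was corrected, how arrays were scaled and which annotation build was used were not given in the sources used here. A second deposited table of log2 values was identical and tied columns to samples.

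Groups follow the genotype and solution in the labels. Members, lists, roles and thresholds were chosen with earlier results of these data known. Log2 differences between arrays were taken for genes whose signals exceeded the 40th percentile over the 22746 gene probe sets on both arrays (all 4 for the difference of responses), and at least 2-fold was counted. A gene detected on 1 array only has a bound, its signal over the other array's floor. Named genes are, per comparison, the 8 lowest and 4 highest measured members and up to 4 bounds in each direction, up to 4 members and 3 other genes per role list, the 5 members with the most unequal responses, the members nearest 2-fold, and WRKY47. Of the members the rule names, 1 is not reported here. Not every bound and gene outside the set that the rule names is printed, and those printed, like further members that describe a role group, were picked after their values were seen. Symbols come from RefSeq genes (assembly TAIR10.1), where all 118 members matched. The alternatives were other scalings, detection floors, thresholds, an offset, the mean of a gene's probe sets and other choices of members. The computation (Python 3.11.15, pandas 2.3.3, numpy 2.4.6) was tested on simulated data. Precision is limited by the number of arrays. Sequences were not used here.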

Additional observations from a re-analysis of the deposited data

Results flagged for a closer look

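In 9 of the 78 members detected on every array the Al difference was above 0 in wrky47 and below 0 in the wild type. Opposite signs in either direction were seen in 2473 of the 12223 genes so measured, a larger share than among the members. The difference between the genotypes was not tested, since each value is 1 array against another. The difference of the responses was 0.85 in EB1B (0.30 in wrky47, -0.55 in the wild type), 0.67 in EMB2780 (0.12 in wrky47, -0.55 in the wild type) and 0.50 in CDKD1;3 (0.11 in wrky47, -0.39 in the wild type). It was 0.38 in FU (0.02 in wrky47, -0.36 in the wild type) and 0.38 in NUA, a nuclear pore protein (0.08 in wrky47, -0.31 in the wild type). It was 0.32 in AGO4 (0.05 in wrky47, -0.27 in the wild type), 0.28 in CHR17 (0.17 in wrky47, -0.11 in the wild type), 0.21 in AN (0.06 in wrky47, -0.15 in the wild type) and 0.17 in KIN17 (0.08 in wrky47, -0.09 in the wild type). The median difference between wrky47 and the wild type over the measured members also changed sign with the solution, being 0.11 in Al and -0.09 in control solution. Over all measured genes the medians were 0.003 in Al and -0.05 in control solution, so they changed sign as well. The change of sign in the members too was not tested. Neither pattern can be told apart from the number that the table's header gives each array.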

How the results depend on the processing

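No paired analysis was possible because each group has 1 array, the sample labels carry no replicate numbers, and a block by the numbers in the table's header would equal the difference of the responses. No array could be left out. No median of the members changed sign under any alternative.
The 2 members at least 2-fold lower in Al in wrky47 became 1 with a floor at the 60th percentile, with an offset before log2 and relative to the median of all genes, 17 at 1.5-fold and 0 at 3-fold. The 3 in the wild type became 1 with quantile normalization, centring, 75th percentile scaling or values relative to that median, 6 without a filter, 29 at 1.5-fold, 0 at 3-fold and 0 with the offset. The median Al difference in the wild type (-0.48) was -0.42 with quantile normalization, -0.41 with centring and -0.36 relative to the median of all genes. The genotype median in control solution (-0.09) was -0.0386 with quantile normalization, -0.0357 with centring, -0.0413 relative to that median, -0.0307 with 75th percentile scaling and -0.0515 over members with a division or replication role. There 1 member was at least 2-fold lower without a filter and 3 at 1.5-fold. In Al the genotype median (0.11) was 0.0590 with the 60th percentile floor, and at 1.5-fold 1 member was higher and 1 lower. The median difference of responses (0.19) was 0.13 with centring and 0.12 with 75th percentile scaling. Its count of 1 member was 0 with quantile normalization, centring, 75th percentile scaling, the 60th percentile floor, 3-fold, the offset, values relative to that median or members with a role, and 6 at 1.5-fold. Among the named members WEE1 in the wild type, at -0.01, turned to 0.14 with quantile normalization, 0.06 with centring, 0.05 with 75th percentile scaling and 0.11 relative to that median. The values relative to the median of all genes and those over members with a role were chosen after seeing the data. The cause of these moves was not tested.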
